A study of Mus musculus with 10 samples.

Results

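Leptin receptor signalling was followed through 8 genes in hippocampal tissue of the mouse lines DU6 and FztDU: the ligand Lep, the receptor Lepr, the kinase Jak2, its adaptor Sh2b1, the transcription factor Stat3 and the brakes Socs3, Ptpn1 and Ptpn2. The genes were chosen by name, with earlier results of these data known. Each was found in exactly 1 transcript cluster, so that 8 of the 22206 clusters of the Clariom S Mouse array were members, and splice forms of Lepr, short or long, were not measured apart. DU6 is an outbred line selected for high body mass and FztDU is the unselected outbred line it is compared with. All mice were male and carried no engineered allele or treatment, and 5 mice per line gave 1 hippocampal array each. The sample labels give an age of 21 to 22 weeks, the methods 21 weeks, and another place of the study's text a younger age. Values are the authors' log2 values per array, and a difference is always DU6 minus FztDU on that log2 scale.

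Leptin is secreted by fat cells in proportion to fat mass and acts in the brain through a receptor without kinase activity of its own. The receptor carries Jak2, which phosphorylates both itself and the long form of the receptor, and the marked receptor then recruits Stat3, which enters the nucleus as a transcription factor. Sh2b1 enhances Jak2 activity. Socs3, itself a target of Stat3, binds the receptor complex and closes a feedback loop, while the phosphatases encoded by Ptpn1 (PTP1B) and Ptpn2 (TCPTP) remove phosphate from Jak2 and from Stat3. In rodents, leptin acts on hypothalamic neurons that control feeding and modulates synapses of the hippocampus. Short forms of Lepr are known from the choroid plexus, the epithelium that makes cerebrospinal fluid, and from brain vessels.

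The arrays differed in tissue beside the hippocampus, and these differences touch the results below. The mean of 10 choroid plexus markers, centred on all arrays, lay at 2.10 and 2.05 in DU6 replicates 1 and 5 and at 1.65 in FztDU replicate 5, and between -1.20 and -0.10 in the other 7 arrays. These 3 arrays are called choroid-rich here. DU6 replicate 2 held markers of the cerebellum, with a centred mean of 5.37 against -0.92 to -0.37 in the other arrays. Defining hippocampal neuron markers were present in every array, with Prox1 of dentate granule cells between 8.43 and 9.51 and Fibcd1 of CA1 pyramidal cells between 6.75 and 7.73.

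For no member did the line difference pass the test. With limma over all clusters (two-sided, Benjamini-Hochberg adjustment), 0 of 8 members had an adjusted p under 0.05, where 0.162% of all clusters did, and 0 of 8 also had a fold over 2, where 0.113% did. The adjusted p of the members ran from 0.796 to 0.995. At an unadjusted p under 0.05 there was 1 of 8 members, Ptpn1, beside 5.86% of all clusters (2.7% higher and 3.17% lower in DU6). The values of the lines overlapped for all 8 members, whereas 1.22% of all clusters had lines that did not overlap. The mean was lower in DU6 for 6 members and higher for 2, beside 49.5% of all clusters with a lower mean. The median difference was -0.11 over the members and 0.00 over all clusters.

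**Figure D1:**
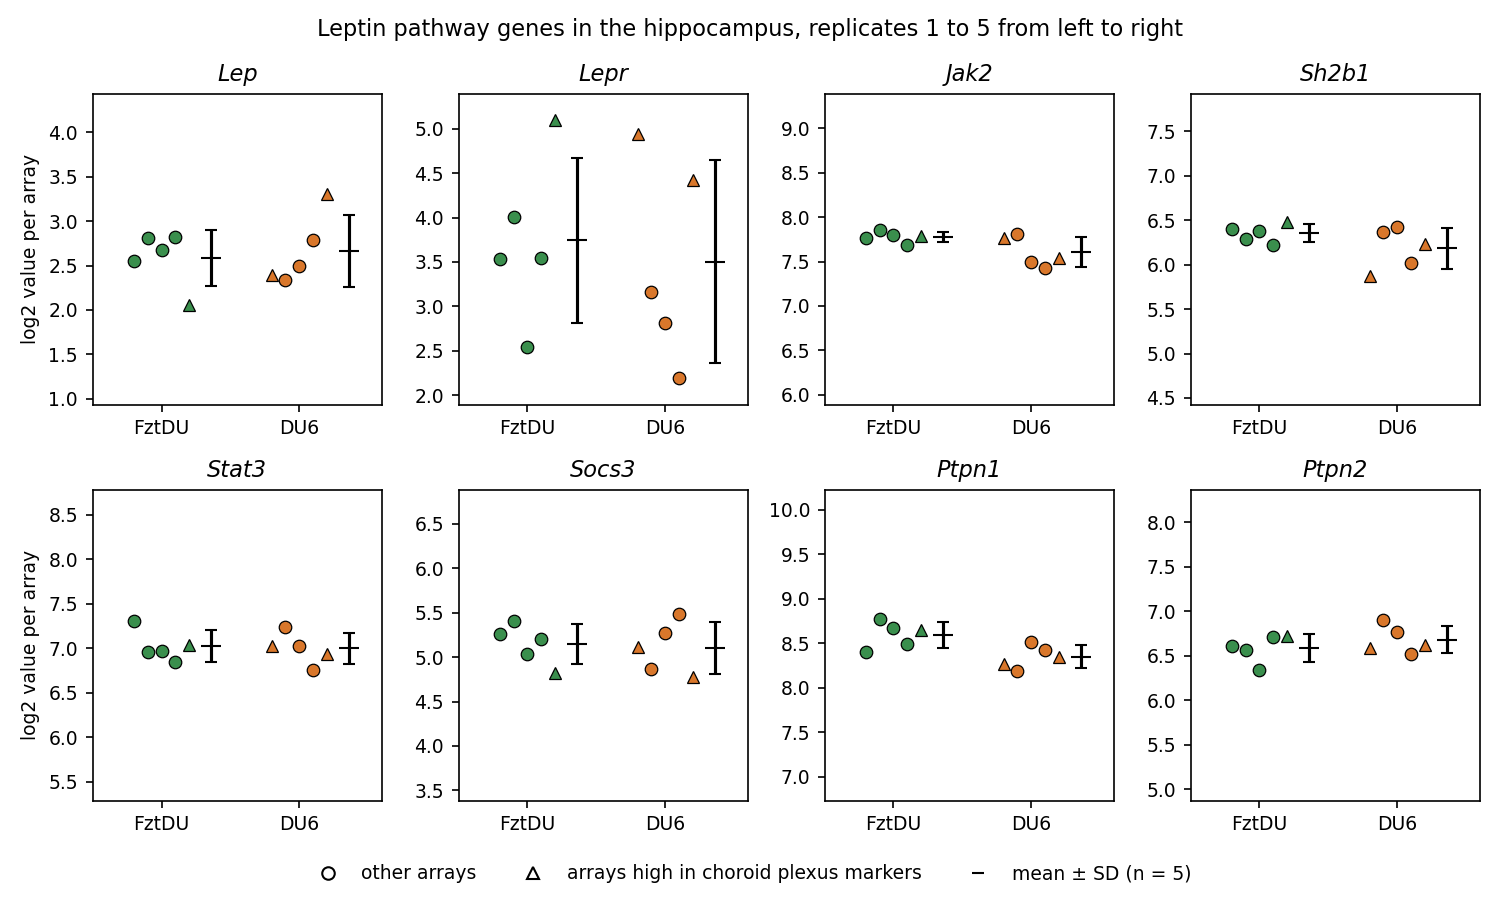
Log2 values per array (y axis, every panel spanning the same number of log2 units) of the 8 leptin pathway genes in FztDU (green) and DU6 (orange) mice, 1 point per mouse, with mean and SD beside the points and triangles for the 3 choroid-rich arrays. The points of the lines overlap for every gene, and Lepr has the widest scatter, from 2.19 to 5.10, with the 3 triangles on top.

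Lepr, the leptin receptor, varied widely between arrays. Its cluster lies on chromosome 4 from 101717404 to 101815354 (mm10). In DU6 replicates 1 to 5 the values were 4.94, 3.16, 2.81, 2.19 and 4.42. In FztDU replicates 1 to 5 they were 3.53, 4.01, 2.54, 3.54 and 5.10. The 3 choroid-rich arrays held the 3 highest values, in both lines, and the lines overlapped over most of their range. The highest and the lowest array differed 7.52-fold, and the SD of 0.99 over the 10 arrays exceeded that of 99.6% of all clusters. The SD of the other 7 members lay between 0.15 and 0.34. The line means were 3.50 ± 1.14 in DU6 and 3.74 ± 0.93 in FztDU (SD, n = 5 each). The difference was -0.24 (standard error 0.53, 95% interval -1.39 to 0.91, limma adjusted p = 0.994). Permuting the line labels exactly (two-sided) gave p = 0.730, with 0.00794 as the smallest p that 5 against 5 arrays allow. The interval includes changes of up to 2.63-fold, so that these arrays do not show whether Lepr differs between the lines. Without DU6 replicate 4 the difference was 0.09 and without FztDU replicate 5 it was 0.10, which turned its direction.

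The sequence ahead of the Lepr start at which the cluster begins is shown because Lepr is the member whose level varied. It is taken from the RefSeq promoter table (GRCm38.p6, the assembly also called mm10). Starts were read for 7 of the 8 members, and Ptpn2 was left out of this reading. The stretch runs over the 250 bases before the start, chr4:101717157-101717406, plus strand, and holds no match to the motif TTCNNNGAA described with Socs3.
Lepr: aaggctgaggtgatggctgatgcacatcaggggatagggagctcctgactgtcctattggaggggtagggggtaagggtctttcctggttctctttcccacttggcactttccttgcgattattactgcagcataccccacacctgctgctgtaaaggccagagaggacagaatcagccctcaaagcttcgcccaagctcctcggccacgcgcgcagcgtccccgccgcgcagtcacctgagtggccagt

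The values of Lepr followed the split of the arrays by choroid plexus markers. They averaged 4.82 in the 3 choroid-rich arrays and 3.11 in the other 7, a log2 difference of 1.71 or 3.27-fold. Lepr was the 1 member of 8 for which all 3 choroid-rich arrays lay above every other array, which held for 1.57% of all clusters. No member had all 3 below every other array, as 0.703% of all clusters did. In a limma fit with the line and the mean of the markers as terms, Lepr rose by 0.67 per log2 unit of the markers (standard error 0.09, adjusted p = 0.00434). This term passed an adjusted p of 0.05 for 0.387% of all clusters, and for none of the other 7 members, whose adjusted p was 1.00 each in limma. Without DU6 replicate 1 the slope was 0.63 with an adjusted p of 0.0527 in limma, and it passed without any 1 of the other 9 arrays. Over the 7 arrays that were not choroid-rich the slope was 0.87 (standard error 0.49, adjusted p = 1.00 in limma), which did not pass. The choroid-rich arrays form a separate group, and the slope over all 10 arrays carries this split. It does not show a graded relation. For the same reason no correlation of a member with the markers over all 10 arrays is given. Over the 7 other arrays, the Pearson r of Lepr with the markers was 0.673 (exact permutation p = 0.0845, adjusted over the 8 members 0.338) and the Spearman rho 0.464 (exact permutation p = 0.302, adjusted 0.680). Without the 2 arrays farthest from the median of the markers r was 0.553, but with Ttr alone in place of the marker mean r was 0.659 over the 7 arrays and -0.261 without the 2 farthest. The relation within these arrays thus rests on a few of them. Socs3 had a similar r of 0.656 over the 7 arrays (exact permutation p = 0.0794, adjusted over the 8 members 0.338), so this was not particular to Lepr. Socs3 was however not higher in the choroid-rich arrays, where it averaged 4.90 against 5.22 in the others. FztDU replicate 2, whose markers were next below those of the choroid-rich arrays, had the highest Lepr value of the 7, 4.01.

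**Figure D2:**
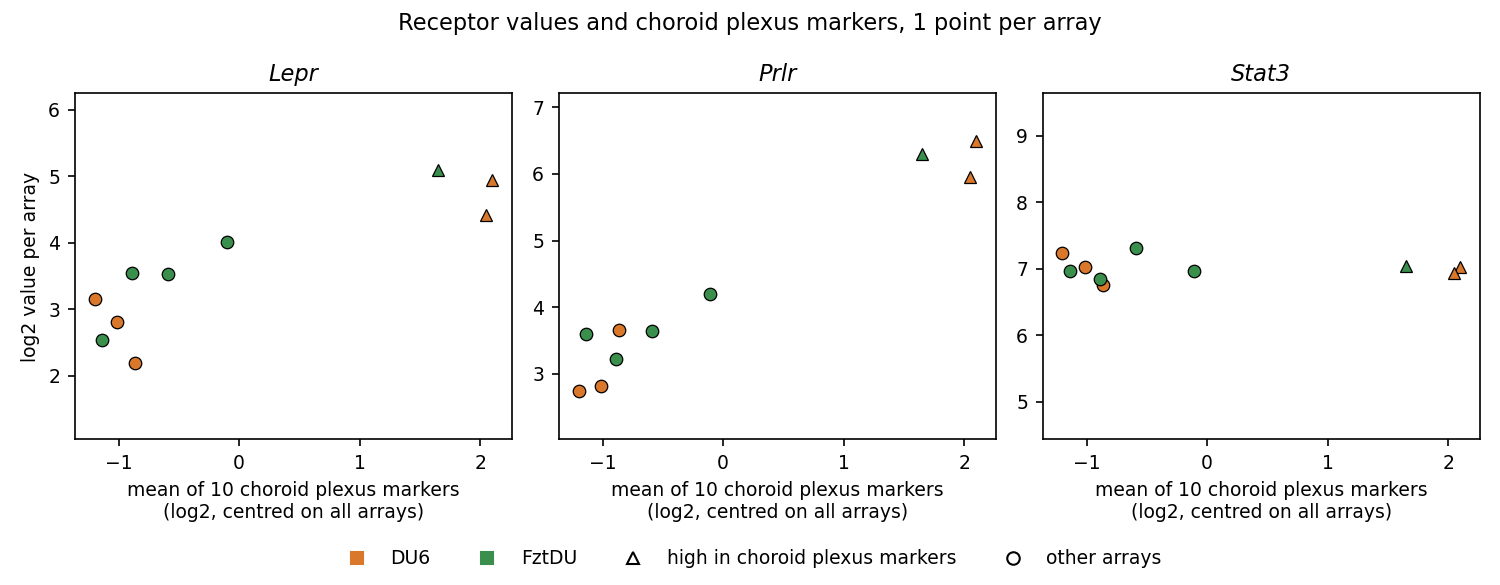
Log2 values per array (y axis, the same span in each panel) of Lepr, Prlr and Stat3 against the centred mean of 10 choroid plexus markers in log2 units (x axis), 1 point per array, orange for DU6 and green for FztDU, with triangles for the 3 choroid-rich arrays. Lepr and Prlr lie highest in all 3 triangles, while Stat3 stays between 6.76 and 7.31 throughout.

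Single genes from the marker lists of other tissues also lay highest in the same arrays, and which tissue they came from was not tested. All 10 of the choroid plexus markers, Ttr, Kcnj13 and Folr1 among them, lay above every other array in the choroid-rich arrays, and Ttr, the transthyretin made by this epithelium, averaged 12.31 in them against 8.95 elsewhere. Of 5 meningeal fibroblast markers, 1 lay above every other array in all of them, Igf2, a growth factor gene, which averaged 10.72 against 8.85, while the collagen gene Col1a1 averaged 5.80 against 5.81. The mean log2 value of these 5 markers, Igf2 included, was 7.26 to 7.71 in the choroid-rich arrays and 6.29 to 7.25 in the others. Dcn, Lum, Col1a1 and Slc6a13 did not separate these arrays from the others. Of 5 endothelial markers, 1 lay above every other array, the transporter gene Slco1a4 (7.86 against 7.33), and their mean was 7.52 to 7.71 against 6.70 to 7.49. The parts of these tissues in the Lepr values were not tested, and in bulk tissue a larger share of a cell type and more RNA per cell cannot be told apart. With the choroid plexus mean as a term in limma the line difference of Lepr was -0.52 (unadjusted p = 0.0424, adjusted p = 0.855). Without the choroid-rich arrays it was -0.685 (limma unadjusted p = 0.0687, adjusted p = 0.903), with DU6 replicates 2 to 4 and FztDU replicates 1 to 4 left. Without the choroid-rich arrays and the array with cerebellar markers it was -0.905 (limma unadjusted p = 0.0330, adjusted p = 0.998). None of these differences passed the test. The last rests on 2.81 and 2.19 in DU6 replicates 3 and 4, against 2.54 to 4.01 in FztDU replicates 1 to 4. Among the 3 choroid-rich arrays, the 2 of DU6 had 4.94 and 4.42 and the 1 of FztDU had 5.10. Of 16651 other clusters searched, Bmp7, a growth factor of the BMP family, was most like Lepr over the 10 arrays (Pearson r = 0.974), followed by Atp7a, a copper-transporting ATPase (0.942), and Cox7a1, a subunit of cytochrome c oxidase (0.939). These coefficients describe the best matches and carry the split between choroid-rich and other arrays, since in each of the 3 genes the choroid-rich arrays lay above all others.

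Lep, which encodes leptin itself, gave a low signal. Its cluster lies on chromosome 6 from 29060220 to 29073877. The values of DU6 replicates 1 to 5 were 2.39, 2.34, 2.49, 2.79 and 3.31, and those of FztDU replicates 1 to 5 were 2.55, 2.81, 2.68, 2.82 and 2.06. The highest value was in DU6 replicate 5 and the lowest in FztDU replicate 5, both choroid-rich, and the other values overlapped. The authors' deposited table calls Lep expressed in FztDU but not in DU6, and the other 7 members expressed in both lines. The difference was 0.08 (95% interval -0.35 to 0.51, limma adjusted p = 0.994), with 2.66 ± 0.40 in DU6 and 2.58 ± 0.31 in FztDU (SD, n = 5 each). It turned to -0.08 without DU6 replicate 5 and to -0.05 without FztDU replicate 5. Of 5 markers of fat cells, 3 are called expressed in neither line and 2, the lipid droplet genes Plin1 and Cidec, in both. Plin1 lay between 3.73 and 4.64 and Cidec between 2.86 and 4.07. Adipoq, the adiponectin gene of fat cells, lay between 2.45 and 2.78 in all arrays and is among those not called expressed. The mean of the 5 markers ran from 3.03 to 3.38 in DU6 and from 2.96 to 3.41 in FztDU.

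Jak2, the kinase bound to the receptor, had a lower mean in DU6, within the spread of that line. Its cluster lies on chromosome 19 from 29251803 to 29313080. The values were 7.77, 7.81, 7.50, 7.43 and 7.54 in DU6 replicates 1 to 5 and 7.76, 7.85, 7.80, 7.69 and 7.79 in FztDU replicates 1 to 5. DU6 replicates 3, 4 and 5 lay below every FztDU array, whereas DU6 replicates 1 and 2 lay among them. The means were 7.61 ± 0.17 and 7.78 ± 0.06 (SD, n = 5 each). The difference was -0.17 (95% interval -0.38 to 0.05, limma adjusted p = 0.966) and the exact permutation test gave p = 0.103. Without the choroid-rich arrays and the array with cerebellar markers the difference was -0.31 (limma adjusted p = 0.998). This left DU6 replicates 3 and 4 against FztDU replicates 1 to 4. Sh2b1, the adaptor that enhances Jak2, had 6.18 ± 0.23 in DU6 and 6.35 ± 0.10 in FztDU (SD, n = 5 each). Its difference was also -0.17 (95% interval -0.43 to 0.08, limma adjusted p = 0.980), with the lowest value, 5.87, in DU6 replicate 1. The difference was -0.09 without that array and -0.05 without the choroid-rich arrays.

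Stat3, the transcription factor at the end of this arm, had nearly equal means in both lines. It had 6.998 ± 0.17 in DU6 and 7.02 ± 0.18 in FztDU (SD, n = 5 each). The values ran from 6.76 to 7.24 in DU6 and from 6.84 to 7.31 in FztDU. The difference was -0.03 (95% interval -0.28 to 0.23, limma adjusted p = 0.995). The interval leaves room for a change of at most 1.21-fold on this scale.

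Among the brakes, Ptpn1, the phosphatase that dephosphorylates Jak2, had the smallest p of the 8 members. Its cluster lies on chromosome 2 from 167932057 to 167979385. The values were 8.27, 8.19, 8.51, 8.43 and 8.35 in DU6 replicates 1 to 5 and 8.40, 8.77, 8.67, 8.49 and 8.65 in FztDU replicates 1 to 5. DU6 replicates 1, 2 and 5 lay below every FztDU array, and DU6 replicates 3 and 4 overlapped with FztDU replicates 1 and 4. The means were 8.35 ± 0.13 in DU6 and 8.60 ± 0.15 in FztDU (SD, n = 5 each). The difference was -0.25, or 1.19-fold, with a 95% confidence interval from -0.47 to -0.02. The unadjusted p of limma was 0.0335 and the exact permutation test gave p = 0.0397, but the adjusted p was 0.796 and the difference did not pass the test. Leaving out any 1 array gave differences between -0.29 and -0.20, and the exact permutation p was above 0.05 when replicate 1, 2 or 5 of DU6, or replicate 2, 3 or 5 of FztDU, was left out. Without the choroid-rich arrays the difference was -0.21 (adjusted p = 0.904 from limma), and without these and the array with cerebellar markers it was -0.11 (adjusted p = 0.998). The latter setting left DU6 replicates 3 and 4 against FztDU replicates 1 to 4. The authors' averages for Ptpn1 are 11.58 in DU6 and 12.16 in FztDU. These averages differ from the values per array by a step not given in the sources used here. They do not keep the order of the genes. In DU6 the averages of Socs3 and Lepr are 3.39 and 4.45, while the means of the values per array were 5.10 and 3.50. Between the lines, the authors' averages of Lep, 3.0 in DU6 and 3.2 in FztDU, and of Socs3, 3.39 and 3.34, had the opposite order to the means of the values per array.

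Ptpn2, the related phosphatase that acts on Stat3, had 6.68 ± 0.15 in DU6 and 6.59 ± 0.15 in FztDU (SD, n = 5 each). The values ran from 6.52 to 6.90 and from 6.34 to 6.72. The difference was 0.09 (95% interval -0.14 to 0.33, limma adjusted p = 0.992). It was 0.03 without FztDU replicate 3, 0.04 without DU6 replicate 2 and 0.175 without the choroid-rich arrays. Ptpn1 and Ptpn2 thus had means on opposite sides of 0, and neither passed the test.

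Socs3, the feedback inhibitor, had 5.10 ± 0.29 in DU6 and 5.15 ± 0.23 in FztDU (SD, n = 5 each). The values were 5.11, 4.87, 5.27, 5.49 and 4.78 in DU6 replicates 1 to 5 and 5.26, 5.41, 5.04, 5.20 and 4.82 in FztDU replicates 1 to 5. The lowest value of each line was in replicate 5, a choroid-rich array, and the ranges of the lines nearly coincided. The difference was -0.04 (95% interval -0.37 to 0.29, limma adjusted p = 0.994). For the 6 members other than Lep and Lepr, the intervals reached at most 1.38-fold in either direction on this scale.

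The sequence ahead of the RefSeq start of Socs3 is shown because Socs3 is the member that Stat3 itself is known to switch on. STAT dimers are known to bind the motif TTCNNNGAA, which reads the same on both strands. The 250 bases before each of 9 RefSeq starts of 7 members were searched for it. Of these starts, 1 had a match, that of Socs3, and 7.02% of 32851 starts in the table had one. The stretch lies at chr11:117969367-117969616 on the minus strand (GRCm38.p6). It falls inside the measured Socs3 cluster, which runs from 117966079 to 117970047 on that strand. The capitals mark the match, whose first base lies 154 bases before the start, and it is a match of letters and not a measured binding site.
Socs3: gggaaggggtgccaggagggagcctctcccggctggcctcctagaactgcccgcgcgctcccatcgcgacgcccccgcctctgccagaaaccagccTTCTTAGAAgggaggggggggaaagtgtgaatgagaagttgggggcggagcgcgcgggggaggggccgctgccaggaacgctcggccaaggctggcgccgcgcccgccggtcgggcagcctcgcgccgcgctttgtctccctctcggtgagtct

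**Figure D3:**
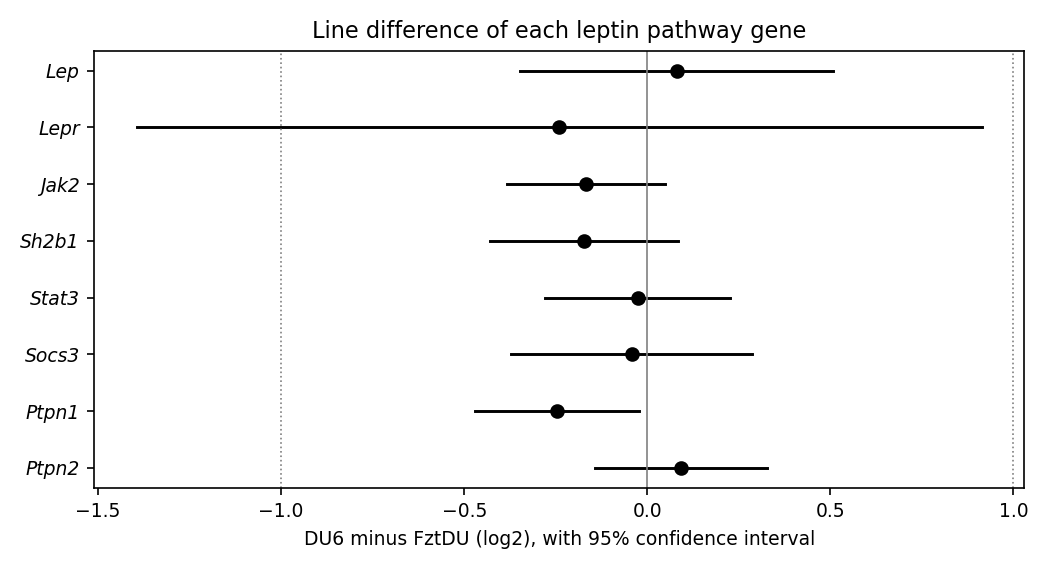
Difference DU6 minus FztDU in log2 units (x axis) of the 8 genes, with the limma estimate as a point and its 95% confidence interval as a line. Dotted lines mark a fold of 2 in either direction, and the interval of Lepr is the only one that reaches one of them, on the side lower in DU6, while that of Ptpn1 is the only one that leaves out 0.

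Around the 8 members, 73 further genes of the pathway were listed in 7 roles, and 72 of them had a cluster, the exception being Jak3. None passed an adjusted p of 0.05 in limma. At an unadjusted p under 0.05 there were 8 of 72, or 11.1%, beside 5.86% of all clusters. Of these 4 were higher in DU6 and 4 lower, and the median difference over the 72 was -0.01. The count of 8 became 4 without DU6 replicate 5, without FztDU replicate 3 or without the choroid-rich arrays, and 5 without FztDU replicate 2.

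Among the other brakes, 14 genes of the SOCS, PIAS and phosphatase families, the unadjusted p was under 0.05 for 1 higher and 2 lower genes, beside 2.7% and 3.17% of all clusters. Ptpre, which encodes the phosphatase RPTP epsilon, had 7.68, 7.70, 7.91, 7.46 and 7.36 in DU6 replicates 1 to 5. In FztDU replicates 1 to 5 it had 8.24, 8.09, 8.29, 7.92 and 7.76. Only FztDU replicate 5 lay inside the DU6 range. Its difference of -0.44 (adjusted p = 0.494 from limma) had the smallest p of the 72 genes. Socs5, another member of the suppressor family, had 6.64 to 6.98 in DU6 and 6.99 to 7.15 in FztDU. It was the 1 gene of the 72 whose lines did not overlap, where 1.22% of all clusters did not, and its difference was -0.21 (adjusted p = 0.842 from limma). Ptpn6, the phosphatase SHP-1 of blood and microglial cells, had a difference of 0.26 (adjusted p = 0.809).

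Of 8 other JAK and STAT genes, the mean was higher in DU6 for 5 and lower for 3, with a median difference of 0.05. Stat6 and Jak1 had differences of 0.17 and -0.09. Of 18 adaptors and kinases downstream of the receptor, 14 had a lower mean in DU6, beside 49.5% of all clusters, and none passed the test. Irs1, an adaptor shared with insulin signalling, had a difference of -0.34 (adjusted p = 0.788 from limma), and Foxo1 and Pik3r1 had -0.26 and -0.10.

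Of 10 genes known to respond to Stat3, the means of 5 were higher and of 5 lower in DU6, with a median difference of 0.00. Bcl3, a nuclear cofactor of NF-kB, had a difference of 0.31 (adjusted p = 0.785 from limma), Fosl2, a subunit of AP-1, -0.35 (adjusted p = 0.788) and Junb, another AP-1 subunit, -0.26 (adjusted p = 0.907). Among 5 genes of receptor trafficking and leptin uptake, whose differences ran from 0.04 to 0.38, Lrp2, the endocytic receptor megalin, had a difference of 0.38 (adjusted p = 0.706 from limma). Clu and Leprotl1 had 0.11 and 0.08. Of 7 neuropeptide genes that leptin is known to regulate in the hypothalamus, none had an unadjusted p under 0.05. The smallest p were those of Trh, Crh and Agrp, with differences of -0.27, -0.14 and 0.25.

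**Figure D4:**
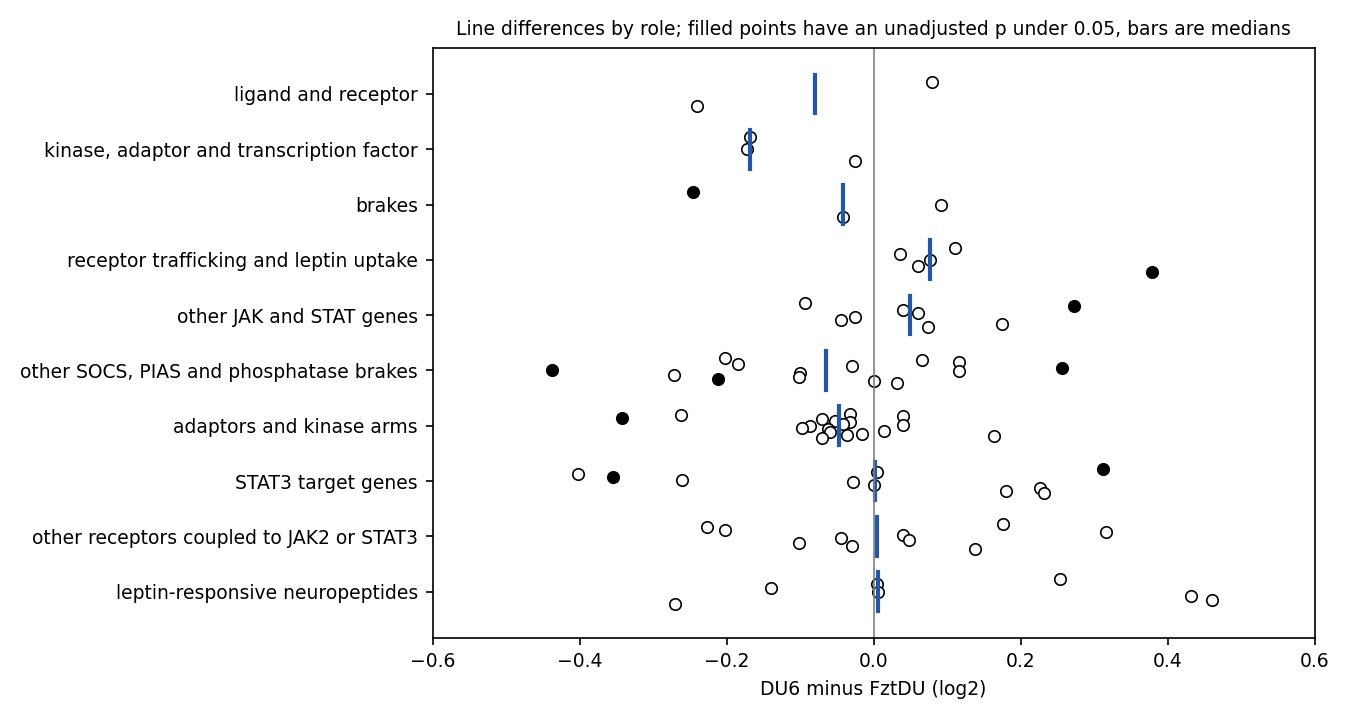
Difference DU6 minus FztDU in log2 units (x axis) of each gene by its role (rows), the first 3 rows holding the 8 members, with bars at the median of each row and filled points for an unadjusted p under 0.05. All differences lie between -0.44 and 0.46, and 9 points are filled, Ptpn1 and 8 further genes.

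Among 10 other receptors that couple to Jak2 or Stat3, none had an unadjusted p under 0.05. Il10ra, Epor and Ghr, the receptors of interleukin-10, erythropoietin and growth hormone, had differences of 0.32, -0.23 and -0.20. Prlr, the prolactin receptor, which is also known from the choroid plexus and was named after its values were seen, was the 1 gene of the 72 that lay above every other array in all choroid-rich arrays. It had 6.49, 5.95 and 6.30 in DU6 replicates 1 and 5 and FztDU replicate 5, and between 2.73 and 4.19 in the other 7 arrays. Its mean was 7.16-fold higher in the choroid-rich arrays, while its line difference was 0.14 (adjusted p = 0.994 from limma). Lepr and Prlr shared this split into 3 and 7 arrays but not the order within it. Jak2, to which both receptors couple, had a mean of 7.70 in the choroid-rich arrays and 7.69 in the others.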

How the data were processed

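Hippocampal RNA of 10 mice, 5 per line, was hybridised to Clariom S Mouse arrays, 1 mouse per array. The authors imported the scanned arrays into the Transcriptome Analysis Console and summarised them with SST-RMA on an mm10 annotation. The deposited values are log2 per transcript cluster and array, with array medians of 5.47 to 5.52. Precision is limited by how many arrays there are. The authors' deposited table of averages and expression calls was read for gene names, positions, averages and calls alone. Its averages differ from the values per array, also in the order of genes, and no step between them is given in the sources used here. Its fold changes, p-values and false discovery rates were not used.

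All 22206 clusters were fitted with limma 3.58.1 (R 4.3.3, lmFit and eBayes, two-sided, Benjamini-Hochberg), unfiltered, with the line as the term, and single values with exact permutation tests (scipy 1.17.1, Python 3.11.15). Figures were drawn with matplotlib 3.10.9. The fit was tested on simulated data. Named beside the 8 members were, per role list, the 3 genes with the smallest p, the 3 clusters most like Lepr and like Socs3 in Pearson r over the 10 arrays among clusters above the 25th percentile of the means, and the first 3 markers of a list. Cell type lists covered choroid plexus, cerebellum, fat cells, hypothalamus, endothelium, meningeal fibroblasts, microglia, astrocytes and hippocampal neurons. An array counted as rich in a tissue where its centred marker mean was above 1 log2 unit. Members and lists were chosen with earlier results of these data known. Alternatives were other normalizations, filters on low values, other limma settings, array weights, a replicate block, the choroid plexus mean as a covariate, and arrays left out. The alternatives that left out the array with cerebellar markers together with the choroid-rich ones, and those for the Lepr slope, were chosen after seeing the data. The labels do not say whether mice shared a litter, cage or hybridisation batch. A gene that the naming rule selects is not reported here.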

Additional observations from a re-analysis of the deposited data

Results flagged for a closer look

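A single array stood apart from the other 4 of its line for 2 of the 35 genes checked. Bcl3 was highest in DU6 replicate 2, at 4.67, with the nearest DU6 array at 4.24. Epor was lowest in the same array, at 4.8, with the nearest DU6 array at 5.25. In each, the gap to the nearest array was larger than Dixon's 95% critical value for 5 arrays. These were 2 of 70 groups of 5 arrays checked, and chance alone gives such a gap in about 5% of groups. DU6 replicate 2 is the array with cerebellar markers, whose part in both values was not tested. Both genes belong to the further pathway lists, and none of the 8 members was among them.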

How the results depend on the processing

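None of the 8 members passed an adjusted p of 0.05 in limma under any alternative, and the smallest adjusted p was 0.595. Of 156 member differences recomputed, 144 kept their direction and 12 turned. Leaving out 1 array at a time gave -0.08 to 0.16 for Lep, -0.60 to 0.10 for Lepr, -0.0865 to 0.05 for Stat3 and -0.14 to 0.04 for Socs3. These turned for Lep without DU6 replicate 5 (-0.0815) or FztDU replicate 5 (-0.051), for Lepr without DU6 replicate 4 (0.0885) or FztDU replicate 5 (0.099), for Stat3 without DU6 replicate 4 (0.0335) or FztDU replicate 1 (0.0455), and for Socs3 without DU6 replicate 2 (0.0165), DU6 replicate 5 (0.039) or FztDU replicate 2 (0.024). Without the choroid-rich arrays Lep was at -0.175, with DU6 replicates 2 to 4 and FztDU replicates 1 to 4 left. Without the choroid-rich arrays and the array with cerebellar markers Lep was at -0.075, Socs3 at 0.1525, Lepr at -0.905 and Jak2 at -0.31. The latter setting left only replicates 3 and 4 of DU6. Sh2b1 ran from -0.23 to -0.09 and Ptpn2 from 0.03 to 0.13 with 1 array left out. The r of Stat3 with Ttr alone over 7 arrays was 0.102, against -0.0461 with all markers. The count of members at an unadjusted p under 0.05, 1 of 8, was 2 (Lepr and Ptpn1) with the choroid plexus covariate. It was 0 without the choroid-rich arrays, 2 (Lepr and Jak2) without these and the array with cerebellar markers, and 0 to 1 with 1 array left out. For the 72 further pathway genes it was 8, and became 5 without the lowest 50% of clusters, 5 with a trended and robust prior, 4 without the choroid-rich arrays, 5 without these and the array with cerebellar markers, and 4 to 8 with 1 array left out. The exact permutation p with 1 array left out ran from 0.0317 to 0.190 for Jak2, the lowest without DU6 replicate 2, and from 0.0238 to 0.0714 for Ptpn1. The slope of Lepr ran from 0.61 to 0.74 with 1 array left out and was 0.87 without the choroid-rich arrays. The cause of these changes was not tested. The filter on the lowest 25% of clusters left out Lep, and that on the lowest 50% left out Lep, Lepr and Socs3, so these have no value there. Over all clusters, calls with a fold over 2 numbered 25 in the main setting, 16 without the lowest 50% of clusters and 18 without the choroid-rich and cerebellar arrays. With only 5 arrays per line and a low signal for Lep, small differences were not detectable.

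Whether the replicate numbers pair the arrays was not tested, and 5 numbers are too few to settle it. Deviations of same-numbered arrays correlated above 0.1 in 3 of 5 numbers, with a mean of 0.104 against -0.0258 for other pairs, and 2 of 5 DU6 arrays correlated best with their own number. With the replicate number as a block, 0 members were called, the difference of Ptpn1 was -0.25 with an adjusted p of 0.785 in limma, and calls over all clusters numbered 20 instead of 25.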

Other observations

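Other cell types were measured through their markers. Of 5 microglial, 5 astrocyte and 5 hippocampal neuron markers and 6 hypothalamic markers, none passed an adjusted p of 0.05 in limma, nor did any of the 10 choroid plexus, 5 cerebellar, 5 endothelial, 5 meningeal fibroblast and 5 fat cell markers. The median differences were 0.09 for microglia, 0.01 for astrocytes, -0.06 for hippocampal neurons and 0.11 for the hypothalamus, with 0.39 for meningeal fibroblasts, 0.19 for the endothelium, 0.44 for the choroid plexus and 1.04 for the cerebellum, whose markers were high in 1 DU6 array. Spink8, one of the hippocampal neuron markers, had the smallest p of these, with a difference of 1.06 (adjusted p = 0.143 from limma). Lum, a proteoglycan of meningeal fibroblasts, had a difference of 1.07 (adjusted p = 0.456 from limma), and Pmch, the precursor of melanin-concentrating hormone, -0.40 (adjusted p = 0.642). All of these were singled out after their values were seen.

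Over the 10 arrays, the clusters most like Socs3 were Cenpa, a centromeric histone (Pearson r = 0.934), Mrps18c, a mitochondrial ribosomal protein (0.906), and Med9, a subunit of the Mediator complex (0.882). They are the best matches of 16651 clusters searched and are given as a description.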
